A study of Homo sapiens with 8 samples.

Results

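RNA was compared between liver cancer cells that received 2 drugs in sequence and the same cells without drug. The cells were Huh7 and Hep3B, established human lines from hepatocellular tumours. The both-drug libraries came from cells given XL413 for 10 days and then sertraline for 24 hours, 1 library per line. The control libraries came from cells that received neither drug, also 1 per line. The rule was the treatment label, and it took 4 of the 8 libraries in the series. The other 4 libraries received 1 drug alone: sertraline, or XL413 for 10 days. The 24 hours are stated for pretreated cells, and sertraline alone was taken to have lasted as long. The sources used here state no dose. Each group is therefore 2 libraries, 1 per line, and the cell line was a term of the model. The spread behind the p-values against control is how far the 2 lines differ in their response to the treatments. The labels do not say if separate cultures were grown for each library. The p-values therefore say nothing of repeated cultures, and part of the spread may be technical.

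XL413 inhibits CDC7, the kinase that phosphorylates the MCM helicase so that replication origins can fire. Per the labels, the XL413 step was meant to make the cells senescent, a lasting arrest in which cells stay alive, enlarge their lysosomes and often secrete inflammatory proteins. Sertraline, used against depression, blocks the transporter that takes serotonin back into cells, and it is also a cationic amphiphilic compound of the kind that collects in lysosomes.

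The both-drug libraries held 28902625 reads (Huh7) and 30842770 reads (Hep3B), and the control libraries 27262246 reads (Huh7) and 28774946 reads (Hep3B). The 10 hepatocyte markers all passed the filter on low counts, and their summed level was 37633 CPM (Huh7) and 30775 CPM (Hep3B) with both drugs, against 43232 CPM (Huh7) and 41972 CPM (Hep3B) without drug. CPM are read counts scaled to library size, with library sizes corrected by the trimmed mean of M-values (TMM). Endothelial markers summed to 3.79 and 0.825 CPM with both drugs (Huh7, Hep3B), against 6.69 and 1.31 CPM in the controls, and 4 of the 6 in the table were under 1 CPM in all 4 libraries. Markers of stellate cells and fibroblasts summed to 39.0 and 35.1 CPM with both drugs, against 71.0 and 47.3 CPM in the controls. Markers of immune cells summed to 412 and 88.4 CPM with both drugs, against 405 and 74.4 CPM in the controls, and LYZ made up nearly the whole of that sum in each library, with PTPRC, CD3E, CD68 and ITGAM each under 1 CPM. The part of these markers in the results below was not tested.

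Of 16972 genes tested, 822 were higher and 742 were lower in cells given both drugs. These 1564 genes are 9.22% of those tested, with 4.84% higher and 4.37% lower. Counts of list members below are to be read against these shares. A gene was called when its Benjamini-Hochberg adjusted p from edgeR's quasi-likelihood test was under 0.05. Both lines moved in the same direction for 1553 of the 1564, or 99.3%, and for 65.3% of all genes tested. The test takes disagreement between the lines as its spread, so it favours genes on which they agree. The 99.3% is therefore largely set by the calling rule. Rises were larger than falls: the median log2 change was 1.14 among called rises and -0.67 among called falls. More than 2-fold changes were found for 480 of the rises and 115 of the falls. The median over all genes tested was 0.02. With scaling by total count this median was 0.14, and the split became 1214 higher and 375 lower. The count of calls depended on each of the 4 libraries. It was 6 without the Huh7 both-drug library, 402 without the Hep3B both-drug library, 277 without the Huh7 control and 55 without the Hep3B control. The gene lists below followed: in those with 3 or more calls in a direction, at most 1 member was called without the Huh7 both-drug library, 22 without the Hep3B both-drug library, 11 without the Huh7 control and 5 without the Hep3B control. Of the 1564 genes, 1561 to 1564 kept their sign in these 4 fits. In bulk RNA, fewer cells of a type and less RNA per cell cannot be told apart. Where groups are said below not to overlap, this describes the values of 2 against 2 libraries. Its share over all genes was not counted, and it is no separate support for a call.

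**Figure D1:**
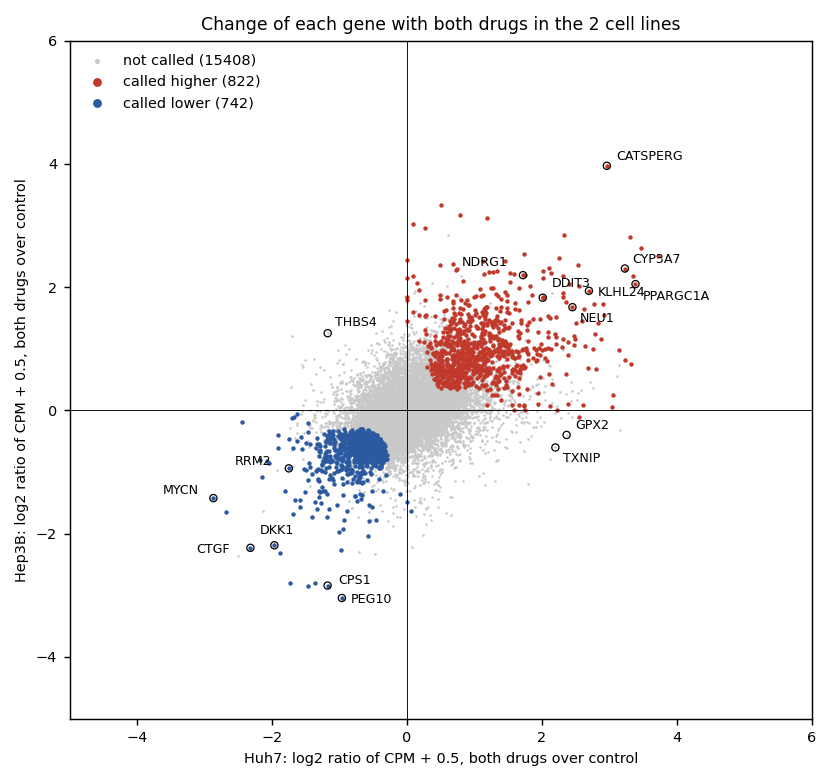
Each point is 1 of the 16972 genes tested, with the log2 ratio of CPM + 0.5, both drugs over control, in Huh7 on the x axis and in Hep3B on the y axis. The 822 genes called higher (red) lie almost entirely in the upper right and the 742 called lower (blue) in the lower left, while THBS4, GPX2 and TXNIP lie in the other quadrants.

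Among the gene lists, the largest block of rises was the ATF4 stress response, the programme of amino acid supply and stress genes that the transcription factor ATF4 turns on when the kinases of the integrated stress response slow translation. Of its 39 listed genes 37 were tested, 23 were called higher and none lower, against 4.84% higher among all genes. The median log2 change was 0.85, and the medians of the log2 ratios inside each line were 0.82 in Huh7 and 0.67 in Hep3B. DDIT3 encodes CHOP, the factor that links prolonged stress to cell death (GRCh38 chromosome 12, 57516588 to 57520517). It had 61.1 CPM in the Huh7 library and 67.3 CPM in the Hep3B library with both drugs, against 14.8 CPM (Huh7) and 18.6 CPM (Hep3B) without drug. Both treated libraries lay above both controls, and DDIT3 rose by 1.95 ± 0.13 on the log2 scale (SE), 3.87-fold, with the smallest p of the comparison (edgeR adjusted p = 0.0031). TRIB3, a pseudokinase induced by CHOP and ATF4, had 301 and 354 CPM with both drugs (Huh7, Hep3B), against 120.1 and 134 CPM in the controls, and rose by 1.36 ± 0.11 (edgeR adjusted p = 0.00376). ASNS, which makes asparagine, had 330.0 CPM (Huh7) and 221 CPM (Hep3B) in cells given both drugs, against 147 CPM (Huh7) and 89.8 CPM (Hep3B) in control cells. CHAC1, which degrades glutathione, had 33.3 and 47.7 CPM with both drugs (Huh7, Hep3B), against 12.9 and 16.2 CPM in the controls. In these genes too the groups did not overlap, and the rises were 1.23 ± 0.12 for ASNS and 1.46 ± 0.16 for CHAC1 (edgeR adjusted p = 0.00652 and 0.00691). SLC7A11, the cystine importer, rose by 0.87 ± 0.13 (edgeR adjusted p = 0.013), and the list also held called rises of VLDLR, STC2, MTHFD2, CEBPG, NUPR1 and ATF3. The ATF4 transcript itself, whose control is mainly translational, had 448 and 421 CPM with both drugs (Huh7, Hep3B), against 361 and 286 CPM in the controls and did not pass the test (edgeR adjusted p = 0.117). The count of 23 became 1 without the Huh7 both-drug library, 10 without the Hep3B both-drug library, 11 without the Huh7 control and 5 without the Hep3B control.

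Promoters of the list were read for the letters TGATGNAA or TTNCATCA, the core of the CCAAT enhancer and ATF response element. Of the 32 list members with a RefSeq promoter entry (GRCh38.p14, 250 bases before the gene start), 4 held it, or 12.5%, against 3.19% of all 27305 promoters. Of the 20 called members with an entry, 4 held it (20%). Here and below such a share describes the make-up of the list. Its link to the change in expression was not tested. Stretches of 3 called members are shown because they carry the element of the genes named here, 5′ to 3′ on the gene's own strand with the match in capitals.
ASNS, chr7:97872447-97872498, minus strand: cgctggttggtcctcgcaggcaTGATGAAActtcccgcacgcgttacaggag
CHAC1, chr15:40953240-40953291, plus strand: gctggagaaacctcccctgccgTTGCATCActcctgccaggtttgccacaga
FGF21, chr19:48755448-48755499, plus strand: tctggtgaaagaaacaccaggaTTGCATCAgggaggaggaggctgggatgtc
FGF21, a liver hormone of fasting and stress, was scarce: it had 0.561 and 0.367 CPM with both drugs (Huh7, Hep3B), against 0.0382 and 0.0709 CPM in the controls. It was called higher (edgeR adjusted p = 0.031), by 2.96 ± 0.65 on the log2 scale.

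Other arms of the stress response had fewer calls. In the unfolded protein response of the endoplasmic reticulum, 3 of 22 tested genes were called higher (13.6%, against 4.84% of all genes). None was lower, and the median was 0.13. The rises were 5 with total count scaling. HERPUD1, which serves protein degradation at that membrane, rose by 1.29 ± 0.17 (edgeR adjusted p = 0.0104). The stress sensors EIF2AK3 (PERK) and ERN1 (IRE1) rose by 0.84 ± 0.16 and 0.85 ± 0.19 (edgeR adjusted p = 0.0233 and 0.035). HSPA5, the main chaperone of that compartment, had 1055 and 890.3 CPM with both drugs (Huh7, Hep3B), against 1069 and 875 CPM in the controls, a log2 change of 0.00 (edgeR adjusted p = 0.996). Of 20 aminoacyl-tRNA synthetases 3 were called higher and 3 lower (30% called, against 9.22% of all genes). AARS, CARS and SARS rose by 0.72 ± 0.12, 0.70 ± 0.13 and 0.62 ± 0.12 (edgeR adjusted p = 0.0183, 0.0213 and 0.0247). FARSB fell by 0.66 ± 0.13 (edgeR adjusted p = 0.0251), and VARS and KARS were called lower. The counts were 5 higher and 1 lower with total count scaling, 2 higher and 0 lower in a fit of the 4 libraries alone, and 3 higher and 1 lower without 1 of the XL413 libraries. Heat shock proteins had 1 call among 17, the mitochondrial chaperone TRAP1, which fell by 0.59 ± 0.14 (edgeR adjusted p = 0.0357) and was not called with total count scaling. That is 5.88%, against 9.22% of all genes. Among NRF2 targets of oxidative stress, 2 of 21 rose, SLC7A11 and OSGIN1, the second by 1.32 ± 0.28 (edgeR adjusted p = 0.029), a share of 9.52% that is near the 9.22% of all genes. The list median of the NRF2 targets was -0.04, and it changed sign with total count scaling. Of 10 metallothioneins 1 was called, MT1H, with 20.1 and 0 CPM with both drugs (Huh7, Hep3B), against 5.66 and 0 CPM in the controls. Metallothionein genes are close copies, and without the Huh7 both-drug library the fitted change of MT1H was -1.30.

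Lysosomal genes formed another block of rises. Of 39 tested, 20 were called higher (51.3%, against 4.84% of all genes) and none lower. The median log2 change was 0.52 (0.49 in Huh7 and 0.48 in Hep3B). NEU1, the lysosomal sialidase (GRCh38 chromosome 6, 31857659 to 31862906), had 836 CPM in the Huh7 library and 2106 CPM in the Hep3B library with both drugs, against 152 CPM (Huh7) and 659 CPM (Hep3B) without drug. Both treated libraries lay above both controls, with the Huh7 library under both drugs nearest to the Hep3B control. NEU1 rose 4.22-fold (2.08 ± 0.20 on the log2 scale, edgeR adjusted p = 0.00589). NPC2, a soluble carrier of lysosomal cholesterol, had 110.0 and 81.4 CPM with both drugs (Huh7, Hep3B), against 40.1 and 38.7 CPM in the controls. LIPA, the acid lipase that frees that cholesterol from its esters, had 96.6 CPM (Huh7) and 146 CPM (Hep3B) in cells given both drugs, against 51.3 CPM (Huh7) and 52.7 CPM (Hep3B) in control cells. Both genes were clear of their controls, with rises of 1.26 ± 0.14 and 1.19 ± 0.14 (edgeR adjusted p = 0.0081 and 0.00917). The protease CTSD rose by 1.10 ± 0.14 (edgeR adjusted p = 0.0104), and the membrane and enzyme genes LAMP2, CD63, PSAP, HEXA, ASAH1 and SMPD1 were among the 20. The count became 1 without the Huh7 both-drug library, 9 without the Hep3B both-drug library, 4 without the Huh7 control and 3 without the Hep3B control. It was 12 without 1 of the XL413 libraries and with the 4 libraries alone.

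TFEB and TFE3, the factors that raise lysosomal genes when mTORC1 releases them, bind an E-box within the CLEAR element. Its letters TCACGTG or CACGTGA were found in 7 of the 23 lysosomal members with a promoter entry (30.4%), against 3.38% of all promoters. Among called members with an entry it was 4 of 13 (30.8%), near the share of the whole list. Stretches of the called members with the smallest p that held it are shown with every match in capitals. In CTSA the second capital run is a pair of overlapping matches, 1 on each strand.
NEU1, chr6:31862920-31862970, minus strand: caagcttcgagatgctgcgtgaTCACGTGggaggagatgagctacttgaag
CTSD, chr11:1763946-1763996, minus strand: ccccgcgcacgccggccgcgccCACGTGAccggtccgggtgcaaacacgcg
CTSA, chr20:45891270-45891320, plus strand: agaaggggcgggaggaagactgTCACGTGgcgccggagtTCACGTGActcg

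Genes that sense nutrients for mTORC1 included 7 called rises (30.4%, against 4.84% of all genes) and no fall among 23 tested (of 24 listed). RRAGD, the Rag GTPase whose gene is itself a TFEB target, had 93.7 CPM in the Huh7 library and 39.2 CPM in the Hep3B library with both drugs, against 22.9 CPM (Huh7) and 8.48 CPM (Hep3B) without drug. It rose by 2.11 ± 0.29, and its partner RRAGC by 1.68 ± 0.27 (edgeR adjusted p = 0.0114 and 0.0163). FLCN, which activates those GTPases, rose by 1.22 ± 0.20, and DDIT4, a stress-induced inhibitor of mTORC1, by 1.63 ± 0.16 (edgeR adjusted p = 0.0163 and 0.00652). SESN2, FNIP1 and FNIP2 completed the 7. Autophagy genes gave 9 rises (31%, against 4.84% of all genes) and no fall among 29, with a median of 0.34. The receptors OPTN and BNIP3L rose by 1.39 ± 0.21 and 0.97 ± 0.21, MAP1LC3B, which coats autophagosomes, by 0.82 ± 0.16, and the starting kinase ULK1 by 0.93 ± 0.19 (edgeR adjusted p = 0.0148, 0.0301, 0.0228 and 0.0264). Without the Huh7 both-drug library neither list had a call, and without the Hep3B control they had 2 and 0.

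FOXO factors are active when insulin and AKT signalling is low, and they raise genes that feed back on insulin signalling. In that list 8 of 23 tested genes (of 24) were called higher (34.8%, against 4.84% of all genes) and none lower. The median was 0.68. KLHL24, an adaptor of a ubiquitin ligase, had 96.2 CPM in the Huh7 library and 86.95 CPM in the Hep3B library with both drugs, against 14.4 CPM (Huh7) and 22.3 CPM (Hep3B) without drug. PPARGC1A, the coactivator of fasting metabolism and mitochondrial genes, had 28.3 and 21.98 CPM with both drugs (Huh7, Hep3B), against 2.26 and 4.93 CPM in the controls. Each treated library lay above each control for both genes, with rises of 5.23-fold and 7.80-fold (2.39 ± 0.28 and 2.96 ± 0.41 on the log2 scale, edgeR adjusted p = 0.00875 and 0.0117). The insulin receptor substrate IRS2 rose by 1.26 ± 0.16 and the atypical cyclin CCNG2 by 1.24 ± 0.19 (edgeR adjusted p = 0.0104 and 0.0159). INSR, PDK4, FOXO3 and BCL6 were the other 4. The 8 calls became 0 without the Huh7 both-drug library or without the Hep3B control, 7 without the Hep3B both-drug library and 4 without the Huh7 control.

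Genes of cholesterol synthesis are driven by SREBP2 when sterol in the endoplasmic reticulum is low. Of 26 tested, 8 were called higher (30.8%, against 4.84% of all genes) and none lower. A log2 change above 0 was found for 24 of the 26, with a median of 0.70. HMGCS1, which starts the pathway, had 2738 CPM in the Huh7 library and 1463 CPM in the Hep3B library with both drugs, against 1514 CPM (Huh7) and 958 CPM (Hep3B) without drug. It rose by 0.73 ± 0.16 (edgeR adjusted p = 0.0322), and the lines kept their order, with the Hep3B library under both drugs below the Huh7 control. MVD, LSS and EBP, further enzymes of the pathway, rose by 1.13 ± 0.21, 1.23 ± 0.24 and 0.87 ± 0.15 (edgeR adjusted p = 0.023, 0.0247 and 0.0178). The log2 ratios of MVD and LSS were 0.71 and 0.79 in Huh7, and 1.55 and 1.66 in Hep3B. Both passed the test of a line difference (edgeR adjusted p = 0.013 and 0.0189). TM7SF2, a late reductase, had 73.7 and 226 CPM with both drugs (Huh7, Hep3B), against 34.4 and 104 CPM in the controls and rose by 1.11 ± 0.12 (edgeR adjusted p = 0.00657). The 8 calls became 0 without the Huh7 both-drug library or without the Hep3B control, 1 without the Hep3B both-drug library and 4 without the Huh7 control. Without 1 of the XL413 libraries they were 12, and without 1 of the sertraline libraries 15. The sterol response element, read as TCACNCCAC or GTGGNGTGA, was found in 1 of 19 members with a promoter entry (5.26%), against 0.875% of all promoters, and in none of the 7 called members that had an entry.

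In fatty acid synthesis 3 of 18 tested genes (of 19) rose (16.7%, against 4.84% of all genes) and none fell. ACSS2, which makes acetyl-CoA from acetate, had 445 CPM in the Huh7 library and 274 CPM in the Hep3B library with both drugs, against 146 CPM (Huh7) and 81.2 CPM (Hep3B) without drug. The groups did not overlap, and ACSS2 rose by 1.68 ± 0.24, 3.20-fold (edgeR adjusted p = 0.012). PNPLA3, a lipid droplet protein, and LPIN1, a phosphatase of triglyceride synthesis, rose by 1.11 ± 0.17 and 1.30 ± 0.26 (edgeR adjusted p = 0.0147 and 0.0262). On the side of sterol removal, which LXR drives, the exporter ABCA1 fell by a log2 change of -0.77 ± 0.17 and MYLIP, a ubiquitin ligase that LXR induces, by -0.78 ± 0.20 (edgeR adjusted p = 0.0318 and 0.0493). ABCG1 fell too (edgeR adjusted p = 0.0465), at low levels: it had 0.462 and 0.0917 CPM with both drugs (Huh7, Hep3B), against 2.64 and 0.142 CPM in the controls. SOAT2, which stores cholesterol as ester, rose by 0.93 ± 0.12 (edgeR adjusted p = 0.0109). With total count scaling or without 1 of the XL413 libraries 1 fall was called in this list, and with the 4 libraries alone none. The rises in fatty acid synthesis were 6 without 1 of the sertraline libraries.

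Cell division genes formed the largest block of falls among the lists. Of 39 mitotic genes, 31 were called lower and none higher, against 4.37% lower among all genes, and each of the 39 had a log2 change below 0. The median was -0.72, with -0.89 in Huh7 and -0.47 in Hep3B. KIF23, a kinesin of cytokinesis, had 49.5 CPM in the Huh7 library and 43.1 CPM in the Hep3B library with both drugs, against 117 CPM (Huh7) and 73.7 CPM (Hep3B) without drug. DLGAP5, a spindle protein, had 37.8 and 45.3 CPM with both drugs (Huh7, Hep3B), against 78.5 and 78.01 CPM in the controls. Treated libraries lay below the controls in both genes, which fell by log2 changes of -1.002 ± 0.14 and -0.92 ± 0.12 (edgeR adjusted p = 0.0117 and 0.0104). ECT2 and ASPM, of cytokinesis and the spindle pole, fell by log2 changes of -0.79 ± 0.11 and -0.90 ± 0.13 (edgeR adjusted p = 0.012 and 0.013). CCNB1, CDK1, AURKA, AURKB, PLK1, BUB1, TOP2A and BIRC5 were among the other falls. MKI67, the Ki-67 proliferation marker, had 186 CPM in the Huh7 library and 378 CPM in the Hep3B library with both drugs, against 456 CPM (Huh7) and 448 CPM (Hep3B) without drug. It did not pass the test (edgeR adjusted p = 0.0785), and its change differed between the lines (1.04 ± 0.20 log2 higher in Hep3B, edgeR adjusted p = 0.0039). The 31 falls became 0 without the Huh7 both-drug library, 22 without the Hep3B both-drug library, 1 without the Huh7 control and 0 without the Hep3B control, and were 23 with total count scaling and 17 with the 4 libraries alone.

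**Figure D2:**
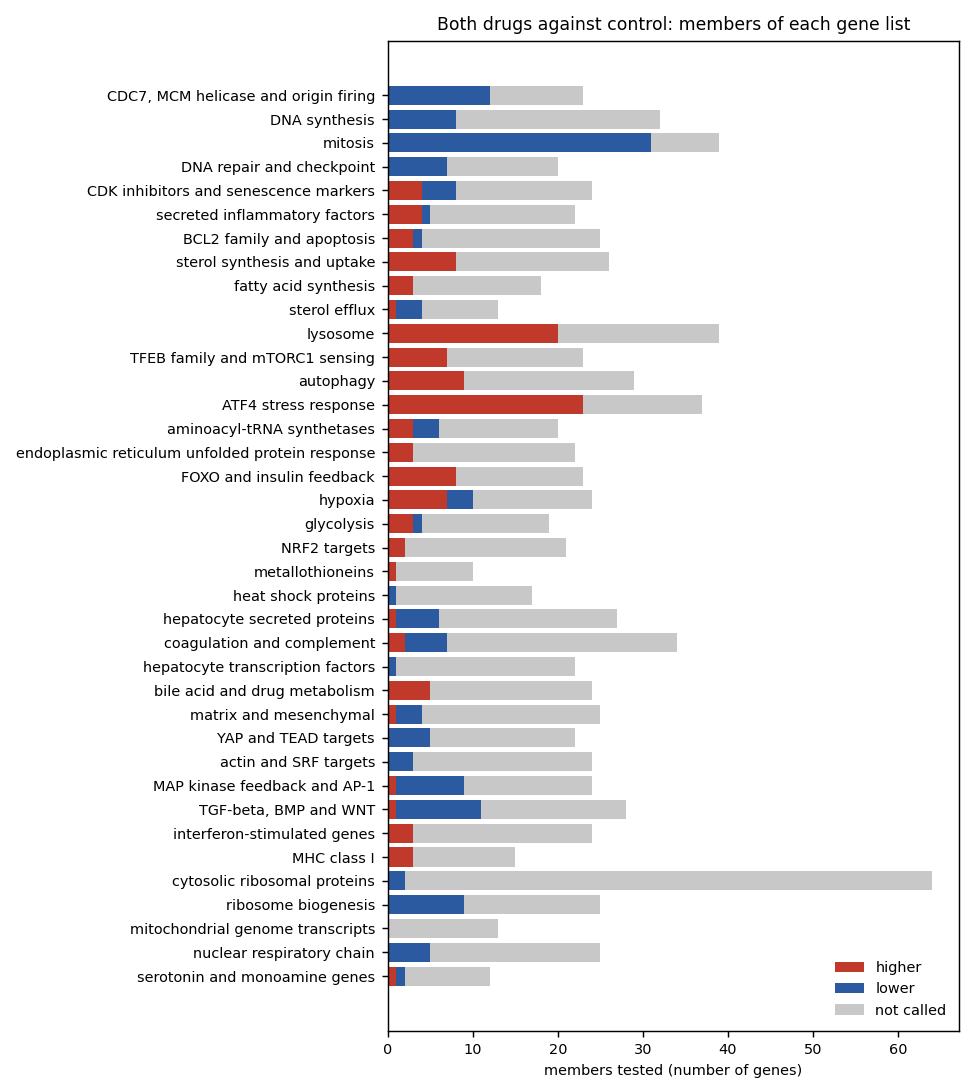
Bars give, for each of 38 gene lists, how many tested members were called higher (red), called lower (blue) or not called (grey) in both drugs against control. The mitosis list has 31 called lower and none higher, and the ATF4 list has 23 called higher and none lower.

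Many mitotic promoters carry the cell cycle homology region, through which the DREAM complex holds them down in resting cells. Its letters TTTGAA or TTCAAA were found in 20 of the 34 mitotic members with a promoter entry (58.8%), against 13.6% of all promoters. Among called members with an entry it was 16 of 27 (59.3%), near the share of the whole list. Stretches of 3 called members follow, with the match in capitals.
DLGAP5, chr14:55191667-55191716, minus strand: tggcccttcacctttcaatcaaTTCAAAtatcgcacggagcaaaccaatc
KIF23, chr15:69414272-69414321, plus strand: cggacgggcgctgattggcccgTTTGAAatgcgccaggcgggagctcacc
ECT2, chr3:172750589-172750638, plus strand: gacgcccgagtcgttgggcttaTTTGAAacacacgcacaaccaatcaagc

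Of 23 genes for CDC7, the MCM helicase and origin firing, 12 were called lower (52.2%, against 4.37% of all genes) and none higher. The median was -0.64, with -0.82 in Huh7 and -0.38 in Hep3B. The test of a line difference called 7 of the 23, against 6.78% of all genes. CDC7, the target of XL413, had 15.7 CPM in the Huh7 library and 17.5 CPM in the Hep3B library with both drugs, against 24.9 CPM (Huh7) and 25.3 CPM (Hep3B) without drug. Both treated libraries lay below both controls, but the change of -0.59 did not pass the test (edgeR adjusted p = 0.0564). MCM2, the subunit that CDC7 phosphorylates, had 191 and 280.2 CPM with both drugs (Huh7, Hep3B), against 363 and 334 CPM in the controls and did not pass either (edgeR adjusted p = 0.121). MCM10 and CDC45, which load at the origin, fell by log2 changes of -1.04 ± 0.19 and -0.93 ± 0.19, and GINS3 and GINS4 of the helicase complex by -0.70 ± 0.15 and -0.65 ± 0.14 (edgeR adjusted p = 0.0216, 0.0254, 0.0285 and 0.0302). MCM3, MCM4, MCM5, MCM6 and MCM7 were among the 12. The letters GCGGGAA or TTCCCGC of an E2F site stood in 5 of the 19 members with a promoter entry (26.3%), against 5.59% of all promoters. Among called members with an entry it was 2 of 9 (22.2%), no higher than in the whole list. With total count scaling 4 were called, with the 4 libraries alone 3 and without 1 of the XL413 libraries 5. Without the Huh7 both-drug library or either control edgeR called none, and without the Hep3B both-drug library 9.

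DNA synthesis genes gave 8 falls and no rise among 32 (25%, against 4.37% of all genes). Their median was -0.52, with -0.77 in Huh7 and -0.29 in Hep3B. The test of a line difference called 10 of the 32, against 6.78% of all genes. RRM2, the subunit of ribonucleotide reductase that supplies deoxynucleotides in S phase, had 87.2 CPM in the Huh7 library and 100.2 CPM in the Hep3B library with both drugs, against 295 CPM (Huh7) and 193 CPM (Hep3B) without drug. The groups did not overlap, and RRM2 fell by 1.32 ± 0.22, 2.50-fold (edgeR adjusted p = 0.0164). TYMS, which makes thymidylate, fell by a log2 change of -0.97 ± 0.19, the polymerase subunit POLA2 by -0.72 ± 0.15 and the repressor E2F8 by -1.33 ± 0.18 (edgeR adjusted p = 0.0232, 0.0299 and 0.0117). In DNA repair and checkpoint genes 7 of 20 were lower (35%, against 4.37% of all genes) and none higher. FANCD2 and FANCI of the crosslink repair pathway fell by log2 changes of -0.78 ± 0.11 and -0.66 ± 0.11, the nuclease EXO1 by -0.91 ± 0.17 and the checkpoint kinase CHEK2 by -0.57 ± 0.13 (edgeR adjusted p = 0.0117, 0.0178, 0.0233 and 0.0365). With total count scaling the falls were 4 in DNA synthesis and 3 in repair. With the 4 libraries alone they were 3 and 4, and without 1 of the XL413 libraries 5 and 3, in that order.

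Markers of arrest and senescence went both ways, with 4 rises and 4 falls among 24 (33.3% called, against 9.22% of all genes). CDKN1A, which encodes the CDK inhibitor p21, had 12.4 CPM in the Huh7 library and 20.3 CPM in the Hep3B library with both drugs, against 4.67 CPM (Huh7) and 5.11 CPM (Hep3B) without drug. It rose by 1.70 ± 0.34, 3.26-fold, from a low level (edgeR adjusted p = 0.0254). TP53INP1, a stress-induced gene that acts in autophagy and cell death, had 249 and 212 CPM with both drugs (Huh7, Hep3B), against 68.7 and 57.9 CPM in the controls, and rose by 1.87 ± 0.24 (edgeR adjusted p = 0.0104). GDF15, a stress hormone, rose by 1.46 ± 0.21 (edgeR adjusted p = 0.012), and BTG2, an antiproliferative gene, was the other rise. LMNB1, the nuclear lamin whose loss marks senescent cells, had 73.8 CPM in the Huh7 library and 136 CPM in the Hep3B library with both drugs, against 172 CPM (Huh7) and 223 CPM (Hep3B) without drug. It fell by a log2 change of -0.95 ± 0.18, and the chromatin protein HMGB2 by -0.79 ± 0.13 (edgeR adjusted p = 0.0231 and 0.0163). CCND1, cyclin D1, had 179 and 47.1 CPM with both drugs (Huh7, Hep3B), against 354 and 227 CPM in the controls and fell by 1.66 ± 0.27 (edgeR adjusted p = 0.0164). The list of secreted inflammatory factors also holds genes of proteins kept mainly in or on the cell, here ICAM1 and TNFAIP3. Of its 32 genes 22 passed the filter, 4 rose and 1 fell (22.7% of the 22 called, against 9.22% of all genes). The median was 0.07. The adhesion molecule ICAM1, the NF-kappaB inhibitor TNFAIP3 and the chemokine CXCL10 rose by 1.42 ± 0.13, 1.42 ± 0.22 and 2.45 ± 0.47 (edgeR adjusted p = 0.00589, 0.0155 and 0.0237), VEGFA was called higher, and the chemokine CCL20 fell by 0.94 ± 0.20 (edgeR adjusted p = 0.0298).

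The BCL2 family, which decides whether mitochondria release death factors, had 3 rises and 1 fall among 25 tested genes (of 27). That is 16% called, against 9.22% of all genes. The rises were BH3-only genes that promote death. BBC3, which encodes PUMA, had 17.3 CPM in the Huh7 library and 20.9 CPM in the Hep3B library with both drugs, against 4.36 CPM (Huh7) and 7.16 CPM (Hep3B) without drug. BMF had 117 and 107 CPM with both drugs (Huh7, Hep3B), against 28.8 and 29.5 CPM in the controls, and HRK had 5.28 CPM (Huh7) and 6.54 CPM (Hep3B) in cells given both drugs, against 0.841 CPM (Huh7) and 0.922 CPM (Hep3B) in control cells. In each of the 3 the groups did not overlap, and the rises were 1.77 ± 0.21, 1.96 ± 0.31 and 2.74 ± 0.37 on the log2 scale (edgeR adjusted p = 0.00875, 0.0162 and 0.0114). BCL2L1, which encodes the survival protein BCL-XL and its shorter, death-promoting form, had 239 CPM in the Huh7 library and 191 CPM in the Hep3B library with both drugs, against 465 CPM (Huh7) and 365 CPM (Hep3B) without drug. It fell by 0.94 ± 0.16, 1.93-fold, with both treated libraries below both controls (edgeR adjusted p = 0.0183); counts per gene do not separate its forms. The 3 rises became 0 without the Huh7 both-drug library or without the Hep3B control.

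**Figure D3:**
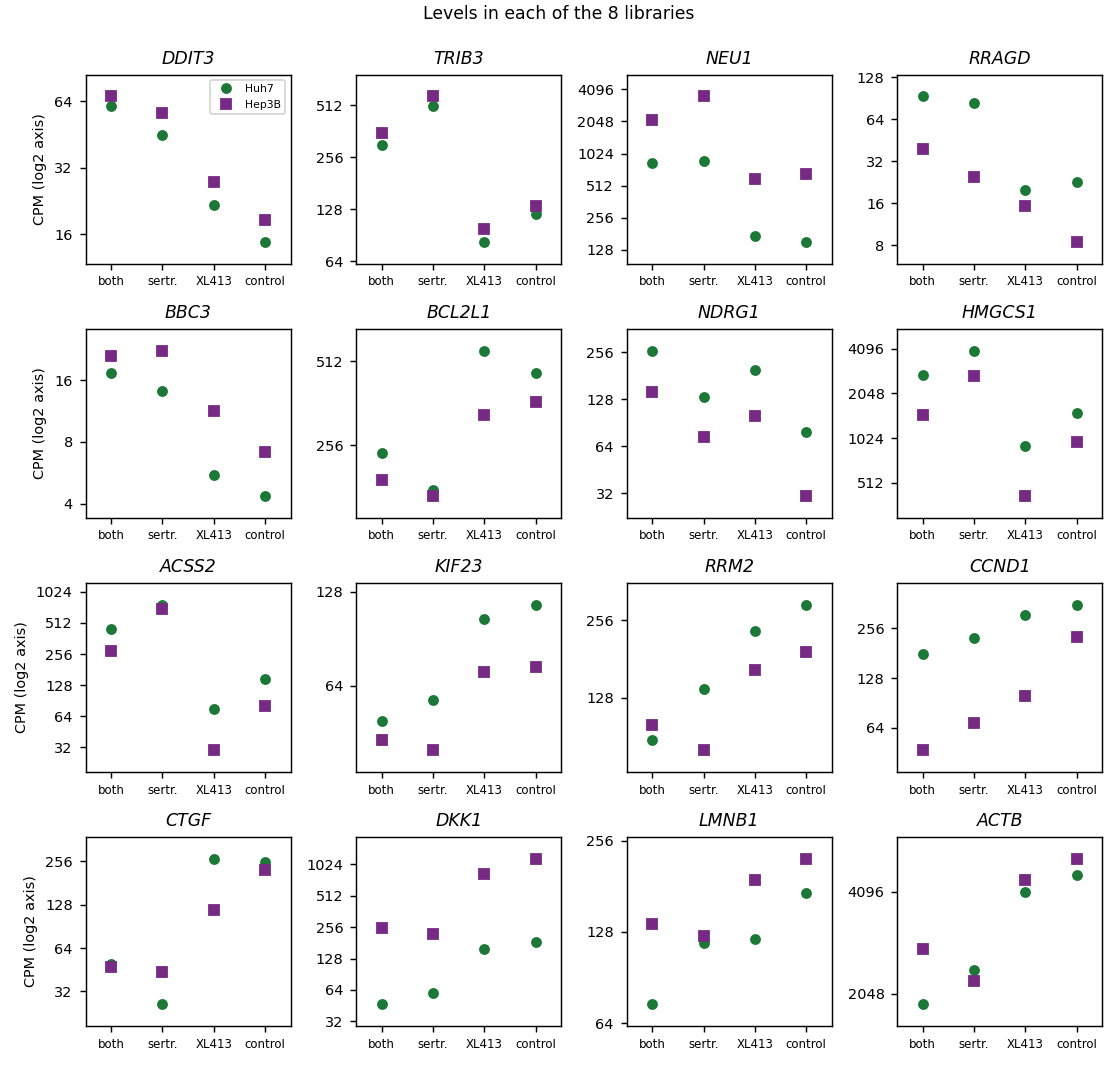
Points give the CPM of 16 genes on log2 axes in the 8 libraries, by treatment (both drugs, sertraline, XL413, control), with circles for Huh7 and squares for Hep3B. DDIT3 lies highest with both drugs in each line, BCL2L1 and KIF23 lie low in the libraries with sertraline, and NDRG1 lies higher with both drugs than with either drug alone.

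Hypoxia-responsive genes were mixed, with 7 rises and 3 falls among 24 (41.7% called, against 9.22% of all genes). Without 1 of the XL413 libraries 4 rises were called, and with the 4 libraries alone 3. NDRG1, a differentiation and stress gene, had 262 CPM in the Huh7 library and 143 CPM in the Hep3B library with both drugs, against 79.2 CPM (Huh7) and 30.8 CPM (Hep3B) without drug. It rose by 1.96 ± 0.15, 3.88-fold, without overlap (edgeR adjusted p = 0.00376). The histone demethylase KDM3A rose by 0.80 ± 0.12, and PDK1, VEGFA, ANGPTL4, MXI1 and PFKFB4 were called higher as well (edgeR adjusted p = 0.0144 for KDM3A). PFKFB3, which drives glycolysis, fell by a log2 change of -0.94 ± 0.15 and the carbonic anhydrase CA12 by -1.40 ± 0.24 (edgeR adjusted p = 0.0162 and 0.0176). In glycolysis ENO2, ALDOC and PKLR rose by 1.14 ± 0.19, 1.21 ± 0.25 and 1.04 ± 0.24 (edgeR adjusted p = 0.0165, 0.0279 and 0.0357), and ENO1 fell by 0.68 ± 0.13 (edgeR adjusted p = 0.0242). The glycolysis median over 19 genes was -0.25, and 21.1% of them were called, against 9.22% of all genes.

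Among hepatocyte products, 5 of 27 tested secreted proteins (of 28) fell and 1 rose, with a median of -0.36. That is 22.2% called, against 9.22% of all genes. ORM1, an acute phase protein (GRCh38 chromosome 9, 114323056 to 114326475), had 53.6 CPM in the Huh7 library and 45.5 CPM in the Hep3B library with both drugs, against 144 CPM (Huh7) and 93.8 CPM (Hep3B) without drug. It fell by 1.23 ± 0.15, 2.34-fold (edgeR adjusted p = 0.00889), and the groups did not overlap. ORM1 has a near-identical neighbouring copy, so its counts are uncertain. The apolipoproteins APOM and APOH fell by log2 changes of -0.92 ± 0.13 and -0.90 ± 0.18 (edgeR adjusted p = 0.012 and 0.025), and HP was called lower as well. GC, which carries vitamin D, rose by 1.01 ± 0.21 (edgeR adjusted p = 0.027). Albumin, ALB, had 6757 and 15463 CPM with both drugs (Huh7, Hep3B), against 6041 and 21887 CPM in the controls, and its fetal counterpart AFP had 15948 CPM (Huh7) and 720.5 CPM (Hep3B) in cells given both drugs, against 20076 CPM (Huh7) and 1256 CPM (Hep3B) in control cells. Neither passed the test (edgeR adjusted p = 0.582 and 0.0897), and without the Hep3B control the ALB change had the opposite sign. Coagulation and complement genes gave 5 falls and 2 rises among 34 tested (of 36), or 20.6% called, against 9.22% of all genes. They gave 3 falls and 4 rises with total count scaling. CPN1 and PLG (plasminogen) fell by log2 changes of -1.33 ± 0.17 and -1.29 ± 0.23, and the complement components C6 and C7 rose by 1.39 ± 0.23 and 1.51 ± 0.24 (edgeR adjusted p = 0.0101, 0.0209, 0.0168 and 0.0163). Of the liver transcription factors, 1 of 22 was called, FOXA1, which fell by 0.63 ± 0.12 (edgeR adjusted p = 0.0233). This share of 4.55% is near the 4.37% of all genes called lower, and with total count scaling the list had 2 rises and 1 fall. HNF4A, the central factor of hepatocyte identity, had 384 and 306 CPM with both drugs (Huh7, Hep3B), against 349 and 356 CPM in the controls (edgeR adjusted p = 0.873).

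Bile acid and drug metabolism had 5 rises (20.8%, against 4.84% of all genes) and no fall among 24 tested genes (of 30). CYP3A7, the fetal form of the main drug-metabolising cytochrome, had 36.1 CPM in the Huh7 library and 11.1 CPM in the Hep3B library with both drugs, against 3.40 CPM (Huh7) and 1.84 CPM (Hep3B) without drug. SULT2A1, which sulfates bile acids and steroids, had 158 and 125 CPM with both drugs (Huh7, Hep3B), against 31.5 and 55.4 CPM in the controls. Both were higher in each treated library than in each control, and rose by 3.04 ± 0.34 and 1.72 ± 0.26 (edgeR adjusted p = 0.00752 and 0.0147). CYP3A5 rose by 1.69 ± 0.27 and CYP2E1 by 2.36 ± 0.43, from levels at or below a few CPM (edgeR adjusted p = 0.0162 and 0.021). CYP3A5 and CYP3A7 are close copies, and reads shared between them may be split uncertainly by the counting. The 5 rises became 0 without the Huh7 both-drug library, 3 without the Hep3B both-drug library and 2 without 1 of the controls.

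YAP and TEAD raise growth genes in spread, dividing cells. Of their 22 tested targets (of 23) 5 were lower (22.7%, against 4.37% of all genes) and none higher, with a median of -0.70. CTGF, a matricellular protein and the best known of these targets, had 49.9 CPM in the Huh7 library and 47.3 CPM in the Hep3B library with both drugs, against 252 CPM (Huh7) and 224 CPM (Hep3B) without drug. It fell by 2.29 ± 0.36, 4.88-fold, without overlap (edgeR adjusted p = 0.0162). CRIM1, AJUBA and DLC1 fell by log2 changes of -1.27 ± 0.21, -0.80 ± 0.16 and -0.78 ± 0.12 (edgeR adjusted p = 0.0169, 0.0249 and 0.0162). CYR61, another target, had 26.9 and 26.9 CPM with both drugs (Huh7, Hep3B), against 119.5 and 85.00 CPM in the controls and did not pass the test (edgeR adjusted p = 0.101); it is named beside CTGF after its values were seen. Of 24 actin and SRF targets 3 were called, each lower (12.5%, against 4.37% of all genes). All 24 had a log2 change below 0, with a median of -0.66. ACTB, cytoplasmic actin, had 1910.1 CPM in the Huh7 library and 2786 CPM in the Hep3B library with both drugs, against 4598 CPM (Huh7) and 5117 CPM (Hep3B) without drug. It fell by a log2 change of -1.06 ± 0.18, TPM1 (tropomyosin) by -0.96 ± 0.18 and TAGLN2, an actin binder, by -0.71 ± 0.16 (edgeR adjusted p = 0.0165, 0.0229 and 0.0331). The matrix and mesenchymal list had 1 rise and 3 falls among 25 tested (of 28), or 16%, against 9.22% of all genes. Its median was -0.21, with 9 above 0. CDH1 (E-cadherin) rose by 0.85 ± 0.14 and CDH2 (N-cadherin) had a log2 change of -0.59 ± 0.14 (edgeR adjusted p = 0.0168 and 0.0411). CDH2 was not called in 10 of 18 alternatives. The YAP falls became 0 without either both-drug library or without the Hep3B control. With the 4 libraries alone 10 YAP targets and 7 actin targets were called lower, and without 1 of the sertraline libraries 6 actin targets.

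Feedback genes of the MAP kinase pathway, which report ERK activity, were listed together with AP-1 members. Of these 24 genes 8 fell and 1, an AP-1 member, rose (37.5% called, against 9.22% of all genes). The median was -0.19, and 10 of the 24 lay above 0. The ERK inhibitors SPRY1 and SPRY4 fell by log2 changes of -1.48 ± 0.20 and -1.50 ± 0.24, the phosphatase DUSP6 by -0.98 ± 0.17 and the factor ETV4 by -1.10 ± 0.18 (edgeR adjusted p = 0.0117, 0.0162, 0.0183 and 0.0163). JUND rose by 0.76 ± 0.18 (edgeR adjusted p = 0.0406). In TGF-beta, BMP and WNT signalling 10 of 28 tested genes (of 30) were lower and 1, GDF15, higher. That is 39.3% called, against 9.22% of all genes. DKK1, a secreted WNT inhibitor, had 46.7 CPM in the Huh7 library and 253 CPM in the Hep3B library with both drugs, against 184 CPM (Huh7) and 1156 CPM (Hep3B) without drug. It fell by 2.09 ± 0.18, 4.26-fold (edgeR adjusted p = 0.00475); the Hep3B library with both drugs still lay above the Huh7 control. The ligand BMP2 fell by a log2 change of -1.30 ± 0.16, and ID1 and SMAD6, direct BMP targets, by -1.27 ± 0.14 and -1.13 ± 0.12 (edgeR adjusted p = 0.00903, 0.00691 and 0.00652). ID3, BMP4, INHBB, JAG1, TGFBR2 and RNF43 were the other falls. The 10 falls became 0 without the Huh7 both-drug library, 6 without the Hep3B both-drug library, 5 without the Huh7 control and 3 without the Hep3B control.

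Interferon-stimulated genes had 3 rises (6 with total count scaling) and no fall among 24 tested (of 30). The 3 are 12.5%, against 4.84% of all genes. Of the 24, 20 lay above 0, with a median of 0.62. The antiviral genes MX1 and IFIT2 rose by 2.34 ± 0.56 and 2.41 ± 0.54, and the factor IRF1 by 1.18 ± 0.28 (edgeR adjusted p = 0.04, 0.0336 and 0.0372). IFIT2 was scarce, with 1.22 and 2.90 CPM with both drugs (Huh7, Hep3B), against 0.0382 and 0.922 CPM in the controls. In the MHC class I pathway 3 of 15 rose (20%, against 4.84% of all genes) and none fell. The median was 0.88, with 1.16 in Huh7 and 0.34 in Hep3B. NLRC5, the transactivator of class I genes, had 1.82 and 2.63 CPM with both drugs (Huh7, Hep3B), against 0.268 and 0.177 CPM in the controls. TAPBP, which loads peptides, had 79.98 CPM (Huh7) and 72.6 CPM (Hep3B) in cells given both drugs, against 35.6 CPM (Huh7) and 33.3 CPM (Hep3B) in control cells. The groups did not overlap for these genes, which rose by 3.28 ± 0.53 and 1.15 ± 0.16, and HLA-E rose by 0.90 ± 0.15 (edgeR adjusted p = 0.0163, 0.0117 and 0.0163). HLA genes are close copies that vary between cells, so their counts are uncertain. Of the 7 immune markers, 5 were under 1 CPM in each of the 4 libraries.

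Ribosome biogenesis had 9 falls and no rise among 25 (36%, against 4.37% of all genes). All 25 lay below 0, with a median of -0.51. UBTF, POLR1A and POLR1E, which transcribe ribosomal RNA, fell by log2 changes of -0.64 ± 0.13, -0.54 ± 0.12 and -0.55 ± 0.13, and the assembly factor BYSL by -0.59 ± 0.12 (edgeR adjusted p = 0.0258, 0.0304, 0.0365 and 0.0285). With total count scaling 1 was called, and with the 4 libraries alone 1. Without 1 of the XL413 libraries the falls were 2, and without 1 of the sertraline libraries 14. Ribosomal proteins themselves had 2 falls among 64, with log2 changes of -0.67 ± 0.12 for RPL35 and -0.52 ± 0.12 for RPL24 (edgeR adjusted p = 0.0209 and 0.0356), a share of 3.12% that is below the 4.37% of all genes. Nuclear genes of the respiratory chain had 5 falls and no rise among 25 (20%, against 4.37% of all genes). NDUFS1, NDUFA4 and CYC1 had log2 changes of -0.46 ± 0.11, -0.55 ± 0.14 and -0.48 ± 0.12 (edgeR adjusted p = 0.0413, 0.0442 and 0.0433). With total count scaling, with the 4 libraries alone or without the Hep3B XL413 library edgeR called 0 of the 25, and without the Huh7 XL413 library 1. Of 13 transcripts of the mitochondrial genome edgeR called 0, with 0 at an unadjusted p under 0.05, and DESeq2 and limma voom called 0. Mitochondrial reads were 3.94% and 4.14% of the both-drug libraries (Huh7, Hep3B), against 3.16% and 4.24% of the controls.

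Among serotonin and monoamine genes 12 of 18 in the table passed the filter. Of these 12, 1 rose and 1 fell, or 16.7% called, against 9.22% of all genes. SLC6A4, the serotonin transporter that sertraline blocks, had 7.40 CPM in the Huh7 library and 1.13 CPM in the Hep3B library with both drugs, against 6.66 CPM (Huh7) and 0.816 CPM (Hep3B) without drug, and did not pass the test (edgeR adjusted p = 0.517). DDC, which makes serotonin and dopamine from their precursors, had 55.3 and 12.8 CPM with both drugs (Huh7, Hep3B), against 88.9 and 35.6 CPM in the controls and fell by 1.08 ± 0.19 (edgeR adjusted p = 0.0183). The receptor HTR1D rose by 3.45 ± 0.66 (edgeR adjusted p = 0.0235) from near 0, with 4.03 and 0.581 CPM with both drugs (Huh7, Hep3B), against 0.153 and 0.177 CPM in the controls.

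The 12 largest rises were of genes with low control levels. CATSPERG, a subunit of a sperm calcium channel, had 5.18 CPM in the Huh7 library and 10.7 CPM in the Hep3B library with both drugs, against 0.229 CPM (Huh7) and 0.213 CPM (Hep3B) without drug, and rose 34.6-fold (5.11 ± 0.40, edgeR adjusted p = 0.00376). NEURL3, of the neuralized family, had 7.83 and 6.97 CPM with both drugs (Huh7, Hep3B), against 0.344 and 0.567 CPM in the controls, and TCP11L2 had 17.6 CPM (Huh7) and 11.4 CPM (Hep3B) in cells given both drugs, against 0.88 CPM (Huh7) and 1.60 CPM (Hep3B) in control cells. These 3 were high in both treated lines. PLA1A, a phosphatidylserine lipase, rose by 3.29 ± 0.40, the costimulatory receptor TNFRSF9 by 3.16 ± 0.74, the axonemal dynein DNAH17 by 3.29 ± 0.45 and TRIM50 by 3.47 ± 0.56 (edgeR adjusted p = 0.00956, 0.0376, 0.0116 and 0.0163). TPPP3, a tubulin binder, had 0.264 and 8.84 CPM with both drugs (Huh7, Hep3B), against 0.0382 and 0.426 CPM in the controls, and AMZ1, a metalloprotease, had 0.0991 CPM (Huh7) and 21.8 CPM (Hep3B) in cells given both drugs, against 0 CPM (Huh7) and 2.38 CPM (Hep3B) in control cells. Both were under 1 CPM in Huh7. NT5DC4 had 2.01 and 9.78 CPM with both drugs (Huh7, Hep3B), against 0 and 0.922 CPM in the controls. The neuronal kinesin KIF1A had 1.68 and 16.1 CPM with both drugs (Huh7, Hep3B), against 0.0382 and 2.98 CPM in the controls, and its fitted rise was smaller in Hep3B than in Huh7 (a log2 difference of -2.61 ± 0.67, edgeR adjusted p = 0.0219). The Huh7 control values of these 4 genes and of TRIM50 (0.0765 CPM), and both control values of CATSPERG, rest on few reads. A fitted fold change from a control at or near 0 depends on the prior count. With 0.5 CPM added, the log2 ratios of CATSPERG were 2.96 in Huh7 and 3.97 in Hep3B. Those of KIF1A were 2.02 in Huh7 and 2.26 in Hep3B, the opposite order to its fitted rises.

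The 12 largest falls included growth and signalling genes. MYCN, a proto-oncogene of the MYC family, had 4.36 CPM in the Huh7 library and 1.90 CPM in the Hep3B library with both drugs, against 35.04 CPM (Huh7) and 5.92 CPM (Hep3B) without drug, and fell by 2.38 ± 0.49 (edgeR adjusted p = 0.0279). The peptides NPPB and EDN1 fell by log2 changes of -2.35 ± 0.50 and -2.35 ± 0.56, and LFNG, which modifies Notch, by -2.43 ± 0.46 (edgeR adjusted p = 0.0291, 0.0399 and 0.0231). PEG10, an imprinted gene of retroviral origin that is high in liver cancer, had 1286 and 109 CPM with both drugs (Huh7, Hep3B), against 2514 and 906 CPM in the controls, and CPS1, the first enzyme of the urea cycle, had 21.00 CPM (Huh7) and 10.2 CPM (Hep3B) in cells given both drugs, against 48.2 CPM (Huh7) and 76.1 CPM (Hep3B) in control cells. Both were lower with both drugs in each line, with a smaller ratio to control in Hep3B, and fell by log2 changes of -2.02 ± 0.49 and -2.07 ± 0.49 (edgeR adjusted p = 0.0421 and 0.039). VSIG1, an adhesion protein, had 0.396 and 2.05 CPM with both drugs (Huh7, Hep3B), against 2.49 and 17.3 CPM in the controls, and the alcohol dehydrogenase ADH4 had 0.165 CPM (Huh7) and 1.41 CPM (Hep3B) in cells given both drugs, against 0.497 CPM (Huh7) and 7.34 CPM (Hep3B) in control cells. NPTX2, a neuronal pentraxin with 0.826 and 0 CPM with both drugs (Huh7, Hep3B), against 6.69 and 0.0709 CPM in the controls, was measured mainly in Huh7. Of 5 tested markers of stellate cells and fibroblasts 1 was called, PDGFRB (20%, against 9.22% of all genes). PDGFRB, a growth factor receptor of mesenchymal cells, had 9.38 and 6.42 CPM with both drugs (Huh7, Hep3B), against 31.4 and 21.6 CPM in the controls. It fell by 1.74 ± 0.15 (edgeR adjusted p = 0.00475). The list median was 0.26, with 3 of the 5 above 0. LUM, a matrix proteoglycan, had 5.98 and 12.02 CPM with both drugs (Huh7, Hep3B), against 1.84 and 9.29 CPM in the controls, and PDGFRA had 7.83 CPM (Huh7) and 12.99 CPM (Hep3B) in cells given both drugs, against 5.09 CPM (Huh7) and 13.2 CPM (Hep3B) in control cells, and neither passed the test (edgeR adjusted p = 0.457 and 0.567). Of 3 tested endothelial markers 1 was called, PECAM1 (33.3%, against 9.22% of all genes). PECAM1, an adhesion molecule, had 1.88 and 0.734 CPM with both drugs (Huh7, Hep3B), against 6.20 and 1.28 CPM in the controls. It fell by 1.32 ± 0.34 (edgeR adjusted p = 0.0494). It was not called with total count scaling. The other endothelial markers lay above 0 without passing the test: CDH5 had 1.19 and 0.0306 CPM with both drugs (Huh7, Hep3B), against 0.344 and 0.0355 CPM in the controls, and VWF had 0.694 CPM (Huh7) and 0 CPM (Hep3B) in cells given both drugs, against 0.0765 CPM (Huh7) and 0 CPM (Hep3B) in control cells (edgeR adjusted p = 0.137 and 0.109).

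The single-drug libraries give the same genes under each drug alone, against the same 2 control libraries. DDIT3, at 61.1 and 67.3 CPM under both drugs (Huh7, Hep3B), had 45.1 CPM (Huh7) and 56.8 CPM (Hep3B) with sertraline alone, and 21.6 CPM (Huh7) and 27.6 CPM (Hep3B) with XL413 alone. Its fitted change was larger with both drugs than with either drug alone, and the difference was not tested. HMGCS1 had 3989 CPM (Huh7) and 2692 CPM (Hep3B) with sertraline alone, and 900.4 CPM (Huh7) and 417 CPM (Hep3B) with XL413 alone. ACSS2 had 771 CPM (Huh7) and 698 CPM (Hep3B) with sertraline alone, and 75.7 CPM (Huh7) and 30.1 CPM (Hep3B) with XL413 alone. For these lipid genes the level with both drugs lay between the level with sertraline and the level with XL413 in each line. The sterol list had a median of 0.70 with both drugs, 1.31 with sertraline alone and -0.77 with XL413 alone, and the fatty acid list 0.50 with both drugs, 1.39 with sertraline alone and -0.60 with XL413 alone. The ATF4 list had 0.85 with both drugs, 1.25 with sertraline alone and 0.12 with XL413 alone. The mitosis list had -0.72 with both drugs, -0.63 with sertraline alone and -0.11 with XL413 alone, and the MHC class I list 0.88 with both drugs, 0.27 with sertraline alone and 0.70 with XL413 alone. NDRG1 had 133 CPM (Huh7) and 73.4 CPM (Hep3B) with sertraline alone, and 195 CPM (Huh7) and 100.1 CPM (Hep3B) with XL413 alone, and KIF23 had 57.7 CPM (Huh7) and 39.9 CPM (Hep3B) with sertraline alone, and 105 CPM (Huh7) and 70.8 CPM (Hep3B) with XL413 alone. Because the 3 sets of changes share their controls, they are given side by side and not compared by a test.

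**Figure D4:**
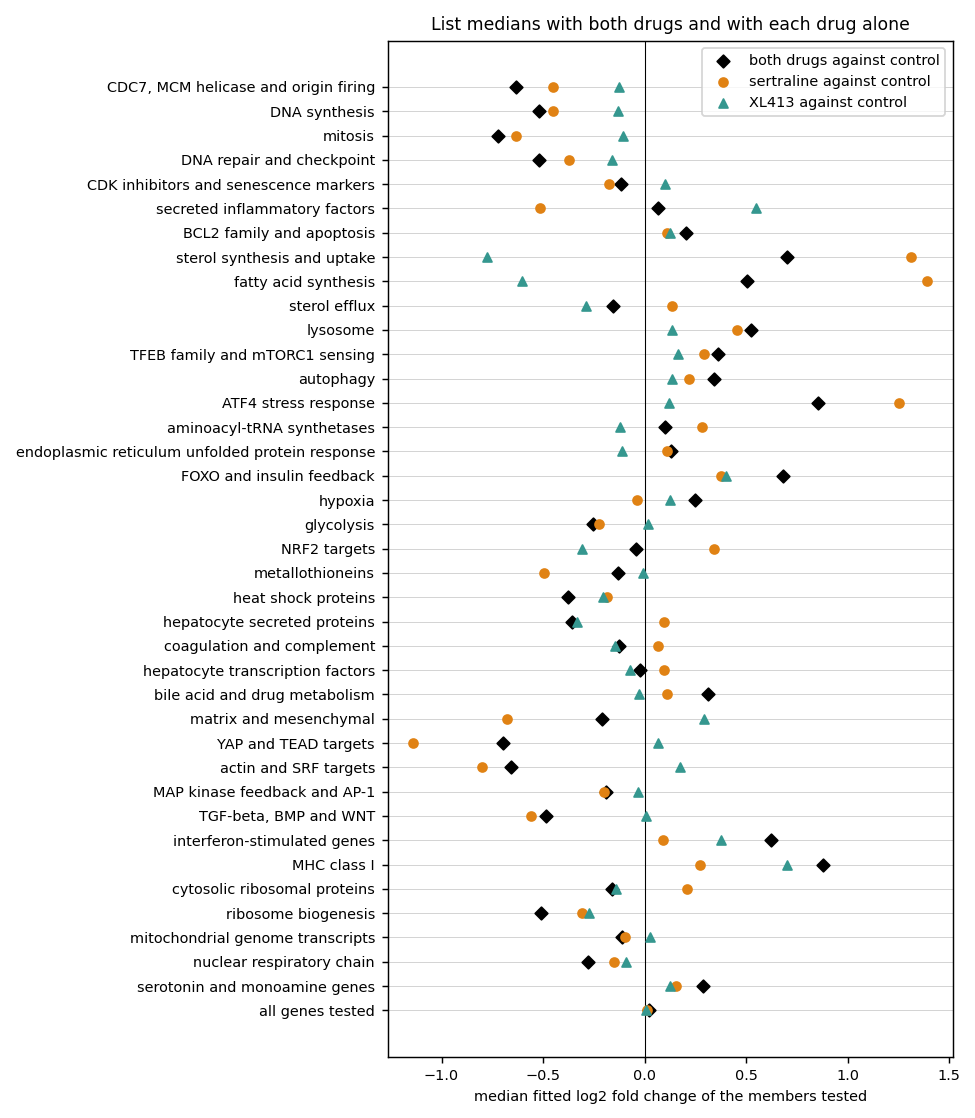
Symbols give the median fitted log2 fold change of the tested members of each list with both drugs (black diamonds), sertraline alone (orange circles) and XL413 alone (teal triangles), each against the same 2 control libraries. The sterol median is 0.70 with both drugs, 1.31 with sertraline and -0.77 with XL413, while the mitosis medians are -0.72, -0.63 and -0.11 in the same order.

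The combined effect was also compared between the lines, in a model with separate XL413 and sertraline effects per line, which leaves 2 residual degrees of freedom. Its error term is the departure from additivity of the drugs within each line, and says nothing of repeated cultures. The effect differed between the lines for 1150 genes, 6.78% of those tested: the signed log2 change was higher in Hep3B for 564 (3.32%) and lower for 586 (3.45%). For 742 of the 1150 the lines did not move in the same direction, whereas 65.3% of all genes tested did. The test of a line difference favours genes on which the lines disagree. The 742 is therefore largely set by the calling rule. Of the 1150, 122 were also called for both drugs against control, a share near the 9.22% of all genes called in that comparison. MVD, LSS, CCND1, GDF15, EDN1, LFNG, TRIM50 and TCP11L2 were among the 122. Each of the 122 moved the same way in both lines. The test against control favours such agreement, unlike the test for genes with a line difference. Leaving out the Huh7 both-drug library gave 128 such genes, and leaving out the Huh7 control 248. With either single-drug Hep3B library left out there were more, 2348 for sertraline and 2346 for XL413. Among genes higher in Hep3B, the matrix protein THBS4 had 79.5 CPM with both drugs against 33.05 CPM without drug in Hep3B, and 82.2 CPM with both drugs against 186 CPM without drug in Huh7. BGN, a matrix proteoglycan, had 60.7 CPM with both drugs against 34.2 CPM without drug in Hep3B, and 15.1 CPM with both drugs against 44.1 CPM without drug in Huh7. The difference was 2.44 ± 0.21 and 2.39 ± 0.22 log2 units (SE, edgeR adjusted p = 1.62e-06 and 2.17e-06). ANXA6, a calcium-dependent membrane binder, MMP16, a membrane metalloprotease, and ADAM28, another protease, differed by 1.90 ± 0.22, 2.08 ± 0.24 and 3.70 ± 0.46 (edgeR adjusted p = 5.08e-05, 5.58e-05 and 7.13e-05). These 5 were lower with both drugs in Huh7 and higher with both drugs in Hep3B.

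On the other side, TXNIP, an inhibitor of thioredoxin and of glucose uptake, had 128 CPM with both drugs against 194 CPM without drug in Hep3B, and 28.5 CPM with both drugs against 5.81 CPM without drug in Huh7. The difference was -2.81 ± 0.25 (edgeR adjusted p = 2.17e-06). GPX2, a glutathione peroxidase, had 41.5 CPM with both drugs against 54.8 CPM without drug in Hep3B, and 58.1 CPM with both drugs against 10.9 CPM without drug in Huh7, a difference of -2.85 ± 0.21 (edgeR adjusted p = 3.64e-07). In both genes the level was higher with both drugs in Huh7 and lower in Hep3B, and the Huh7 control was the lowest of the 4 libraries. AKR1B10, an aldo-keto reductase, had a difference of -3.50 ± 0.35, the betaine transporter SLC6A12 of -2.98 ± 0.29 and the prion protein PRNP of -2.50 ± 0.27 (edgeR adjusted p = 1.03e-05, 8.49e-06 and 2.96e-05).

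**Figure D5:**
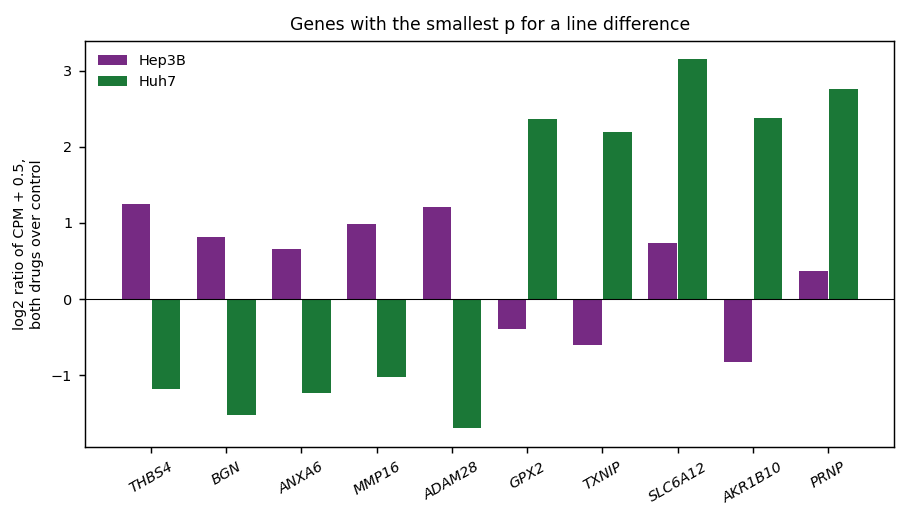
Bars give the log2 ratio of CPM + 0.5, both drugs over control, in Hep3B (purple) and Huh7 (green) for the 10 genes with the smallest p of the line difference, 5 in each direction. The 5 on the left are above 0 in Hep3B and below 0 in Huh7, and the 5 on the right are higher in Huh7.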

How the data were processed

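The data are counts of reads per Ensembl gene, deposited by the authors as whole numbers for 31710 genes in 8 poly(A) libraries, without normalization. HISAT2, HTSeq and GRCh38 (hg38) are named in the submitters' processing notes. The strand setting of the counting is not stated there, so overlapping and antisense genes may share reads. Columns were matched to libraries by title, and 0 columns belonged to other samples.

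edgeR 4.0.16 in R 4.3.3 was run on the counts as deposited. The filterByExpr filter kept 16972 genes and removed 14738. After TMM scaling the quasi-likelihood test used cell line plus treatment over all 8 libraries (3 residual degrees of freedom), with Benjamini-Hochberg adjustment and a threshold of 0.05. Values after ± are standard errors from the fold change and its F statistic. The line difference sums the line-by-XL413 and line-by-sertraline terms. Between libraries of 1 line, deviations from the treatment means had correlations of 0.885 to 0.946. With 2 lines these values are the same for both by construction. The line is the block because all libraries of a line are the same cells. Ratios inside a line add 0.5 CPM to both values and carry no test. Depth was 20275392 to 30842770 reads per library, which limits genes with few reads.

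The compared groups and the 41 gene lists (1003 entries) were chosen with earlier results of these data known. Genes named are the 12 largest rises and falls that were called, averaged at least 1 log2 CPM and moved the same way in both lines, up to 4 called members of each list with the smallest p and up to 2 against its majority, 14 set genes, and for the line difference the 5 genes of smallest p in each direction. Other members appear by name only, and ATF4, HSPA5, HNF4A, CYR61 and FGF21 were added after their values were seen. Some genes that the rule takes are not reported here. Promoters were 250 bases before each RefSeq gene start (GRCh38.p14), read on both strands.

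Alternatives were DESeq2 size factors, total count scaling, no or a stricter filter, the DESeq2 1.42.0 Wald test, limma 3.58.1 voom, robust empirical Bayes, no line term, the 4 libraries alone, line-specific drug effects, an adjusted p under 0.10, other pseudocounts for the ratios inside a line, and leaving out each library. The tests were tried on simulated counts. Figures were drawn with matplotlib 3.10.9.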

Additional observations from a re-analysis of the deposited data

Results flagged for a closer look

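The combined effect of both drugs differed between the lines by a test of the difference itself for 10 named genes, 5 in each direction, as the log2 change in Hep3B minus that in Huh7. Higher in Hep3B were THBS4 (2.44), BGN (2.39), ANXA6 (1.90), MMP16 (2.08) and ADAM28 (3.70). Lower in Hep3B were GPX2 (-2.85), TXNIP (-2.81), SLC6A12 (-2.98), AKR1B10 (-3.50) and PRNP (-2.50). ADAM28 had 3.61 CPM with both drugs against 1.28 CPM without drug in Hep3B, and 1.39 CPM with both drugs against 5.62 CPM without drug in Huh7. AKR1B10 had 3.33 CPM with both drugs against 6.28 CPM without drug in Hep3B, and 18.2 CPM with both drugs against 3.10 CPM without drug in Huh7, and SLC6A12 had 26.8 CPM with both drugs against 15.96 CPM without drug in Hep3B, and 12.4 CPM with both drugs against 0.956 CPM without drug in Huh7. PRNP had 52.1 CPM with both drugs against 40.4 CPM without drug in Hep3B, and 15.03 CPM with both drugs against 1.80 CPM without drug in Huh7. Each of the 10 stayed past the threshold with the other scalings, filters and tools run for the line difference, and when each library was left out.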

How the results depend on the processing

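Both drugs against control gave 1564 calls. No filter gave 2505, the DESeq2 Wald test 2455, and an adjusted p under 0.10 gave 3133. A fit with line-specific drug effects gave 5836. Its error term is the departure from additivity of the drugs within each line. Its p-values therefore do not measure disagreement between the lines, and the 5836 is not a stronger form of the 1564. Only the 4 libraries, with the replicate block, gave 808. Without the cell line as replicate block edgeR called 0, with 840 genes at an unadjusted p under 0.05. Leaving out 1 library at a time gave 6 to 1793 calls. The line difference gave 1150 calls, 547 with the DESeq2 Wald test, 1812 at an adjusted p under 0.10, and 128 to 2348 when 1 library was left out. Lone libraries are then assumed to vary like the others. The other alternatives run on these 2 counts stayed within 1.5 times them. Total count scaling changed the sign of the list medians of CDK inhibitors and senescence markers, NRF2 targets, hepatocyte transcription factors, mitochondrial genome transcripts and immune markers. Of 160 named genes, 153 lost their call without the cell line as replicate block, 148 without the Huh7 both-drug library, 133 without the Hep3B control, 88 without the Huh7 control and 78 without the Hep3B both-drug library. With the 4 libraries alone 26 did, and 14 with total count scaling or without 1 of the XL413 libraries. When a library was left out, MT1H ranged over log2 changes of -1.30 to 2.38 and ALB over -0.44 to 0.10. These are the sign changes among the named genes, and their cause was not tested. Depth of 20275392 to 30842770 reads limits genes at few CPM.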
